A study of Mus musculus with 20 samples.

Results

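Described here are 10 genes that mark lipid-associated and monocyte-derived macrophages: Trem2, Gpnmb, Spp1, Cd9, Lgals3, Itgax, Cx3cr1, Ly6c2, Mmp12 and Cd68. They were chosen by name as known markers, with earlier results of these data known, and are 10 of the 55359 genes counted in each library. All 10 passed the filter on low counts, which kept 14428 genes. The 20 libraries come from frozen livers of male wild type mice, strain spelled C56BL/6 in the labels, aged 35 weeks. Every mouse, the normal-diet mice included, had the carcinogen 7,12-dimethylbenz(a)anthracene (DMBA) put on its back skin 4 to 5 days after birth (50 µL, 0.5%), so no group is free of carcinogen. There are 5 groups of 4 libraries. One is liver from the normal diet (12 kcal% fat) without exercise. The others are from the high-fat diet (60 kcal% fat), with a non-tumour and a tumour group for the non-exercised arm and likewise for the exercised arm. The exercised arm began 5 weeks of treadmill training at 20 weeks of age, with a first speed of 10 m/min. It then ran at 18 m/min for 20 min on 5 days a week over the last 10 weeks. For both high-fat arms tissue is recorded as taken 2 hours after the final run, and no such time is given for the normal diet. An effect of the last run and one of long training cannot be told apart. Obese mice were those above 45 g at 35 weeks, so the high-fat groups were selected on body weight. Whole tissue was sequenced, so the values are averages over all cells of a piece, and p-values measure only the spread between these samples.

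In fatty liver, resident Kupffer cells are joined by monocytes that arrive from the blood and become macrophages. Some of these take up lipid and cell debris, build up lysosomes and turn on a set of genes known as the lipid-associated programme, in which the lipid receptor Trem2 and the lysosomal glycoprotein Gpnmb are central. Cells of this kind gather around fat-laden hepatocytes and have been described in both diet-induced steatohepatitis and tumours.

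The genes stand on GRCm39 as the deposited files give them, each a whole gene counted over its exons. Trem2 (ENSMUSG00000023992.15, chromosome 17, 48653429 to 48661175) encodes a surface receptor for lipids that signals through the adaptor Tyrobp. Gpnmb (ENSMUSG00000029816.11, chromosome 6, 49013480 to 49047863) encodes a glycoprotein of lysosome-rich phagocytes, and Cd68 (ENSMUSG00000018774.14, chromosome 11, 69555039 to 69556979) the general macrophage lysosomal glycoprotein. Lgals3 (ENSMUSG00000050335.18, chromosome 14, 47605208 to 47623617) encodes galectin-3, and Mmp12 (ENSMUSG00000049723.15, chromosome 9, 7344381 to 7369499) macrophage elastase. Spp1 (ENSMUSG00000029304.15, chromosome 5, 104582984 to 104588916) encodes osteopontin, a secreted ligand of integrins and Cd44 that bile duct cells also make. Cd9 (ENSMUSG00000030342.9, chromosome 6, 125437229 to 125471754) encodes a tetraspanin found on many cell types. Itgax (ENSMUSG00000030789.10, chromosome 7, 127728719 to 127749829) encodes CD11c, an integrin chain of macrophages and dendritic cells that pairs with Itgb2. Cx3cr1 (ENSMUSG00000052336.8, chromosome 9, 119730682 to 119898945) is the receptor of the chemokine Cx3cl1, and Ly6c2 (ENSMUSG00000022584.15, chromosome 15, 74980007 to 74983819) encodes the surface antigen of inflammatory monocytes. Ly6c2 has a near-identical neighbour, Ly6c1, and reads that match both were left uncounted, so its level is uncertain.

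Library totals ran from 16471378 to 20271948 counts. Albumin took 4.06 to 7.36% of counts in the 12 non-tumour libraries and 9.05 to 15.9% in the 8 tumours. Levels below are CPM, that is counts scaled to a common library size, with TMM-scaled library sizes. In each list of 4 values, the mice are in the order 1 to 4 of the titles. Non-tumour libraries numbered mouse 2 stood apart in both high-fat arms. In the non-exercised arm that library was the lowest of its group in 10 of 10 genes, and in the exercised arm it was the highest in 9 of 10. Summed CPM of 5 general leukocyte genes (Ptprc, Cd53, Laptm5, Coro1a, Spi1) was also lowest of its group in the former (66.8, group range 66.8 to 153.7) and highest in the latter (82.8, group range 67.7 to 82.8). For part of the genes, results that rest on these libraries are also given without them.

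The first comparison set non-tumour liver of non-exercised mice on the high-fat diet against normal-diet liver. Read by mouse number, each of these high-fat mice also gave a tumour piece, and the normal-diet mice gave none. Diet therefore cannot be told apart here from tumour bearing or from the selection on body weight. Of the 10 genes, 8 were higher on the high-fat diet and none was lower, where 14% of all 14428 genes tested were higher and 11.9% lower (edgeR quasi-likelihood test, Benjamini-Hochberg adjusted p under 0.05, also used for every call below). The median log2 fold change of the 10 was 2.61, and that of all genes tested was 0.01. In all 8 every high-fat library lay above every normal-diet library, as in 16.8% of all genes. In whole tissue, more cells of a type and more RNA per cell cannot be told apart.

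The receptor and lysosomal genes rose from very low levels. Gpnmb was at 0.292, 0.0582, 0.229 and 0 CPM on the normal diet, which is 0 to 5 counts per library, and at 8.08, 2.03, 13.3 and 14.8 CPM on the high-fat diet. The difference was 5.96 ± 1.02 on the log2 scale (SE, adjusted p = 0.000819), the largest of the 10 genes, and its size rests on the few counts of the normal-diet group. Trem2 was at 0.292, 0.523, 1.15 and 0.382 CPM on the normal diet and at 6.96, 2.25, 6.55 and 6.78 CPM on the high-fat diet. This was a log2 rise of 3.24 ± 0.61 (adjusted p = 0.00139), and the lowest high-fat library, mouse 2, was still above the highest normal-diet library. Cd68, the most general macrophage marker of the set, was at 5.83, 6.80, 7.22 and 5.72 CPM against 20.7, 11.8, 19.7 and 19.4 CPM. Its log2 rise was smaller, 1.48 ± 0.30 (adjusted p = 0.0022), with groups that did not overlap.

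The secreted and matrix-acting genes split. Mmp12 rose by 4.31 ± 0.73 (adjusted p = 0.000772), from 0.642, 0.233, 0.688 and 0.827 CPM to 14.4, 3.43, 18.2 and 11.5 CPM. Lgals3 rose by 2.37 ± 0.37 (adjusted p = 0.000404), from 4.14, 3.55, 3.96 and 2.74 CPM to 21.1, 7.39, 23.5 and 22.3 CPM. Neither gene's groups overlapped. Spp1 was at 42.1, 15.6, 25.7 and 40 CPM on the normal diet and at 77.6, 37.8, 114 and 164.8 CPM on the high-fat diet. Its log2 difference of 1.68 ± 0.73 did not pass (adjusted p = 0.098), and mouse 2 of the high-fat group overlapped the normal-diet range. Spp1 did pass in DESeq2 (log2 1.66, adjusted p = 0.0466) and in an edgeR fit of the compared groups alone (1.69, adjusted p = 0.0323). The tetraspanin gene Cd9 was at 20.3, 19.7, 15.8 and 14.3 CPM against 25.4, 18.9, 29.6 and 29 CPM, a log2 difference of 0.55 ± 0.34 that did not pass (adjusted p = 0.246). In the fit of the compared groups alone Cd9 also passed (0.57, adjusted p = 0.0194).

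The integrin, chemokine receptor and monocyte genes were all higher. Itgax rose by 2.86 ± 0.50 (adjusted p = 0.000785), from 0.7, 1.16, 0.631 and 0.763 CPM to 5.33, 2.30, 8.74 and 7.41 CPM. Cx3cr1 rose by 2.90 ± 0.56 (adjusted p = 0.00166), from 0.7, 1.45, 1.83 and 0.318 CPM to 8.64, 3.10, 9.03 and 11.7 CPM. In both, mouse 2 was the lowest high-fat library and still above the normal-diet range. Ly6c2 was low in both groups, at 0.117, 0.407, 0.344 and 0.191 CPM (2 to 7 counts per library) against 0.897, 0.482, 2.53 and 0.629 CPM. Its rise of 2.07 ± 0.64 passed (adjusted p = 0.0242) but not without the normal-diet library of mouse 1 (adjusted p = 0.0723) or mouse 4 (0.0644), or the high-fat library of mouse 3 (log2 1.31, adjusted p = 0.144). Without the high-fat library of mouse 2 the same number of genes, 8, passed, and every difference was larger, for example 3.50 for Trem2 and 1.63 for Cd68.

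**Figure D1:**
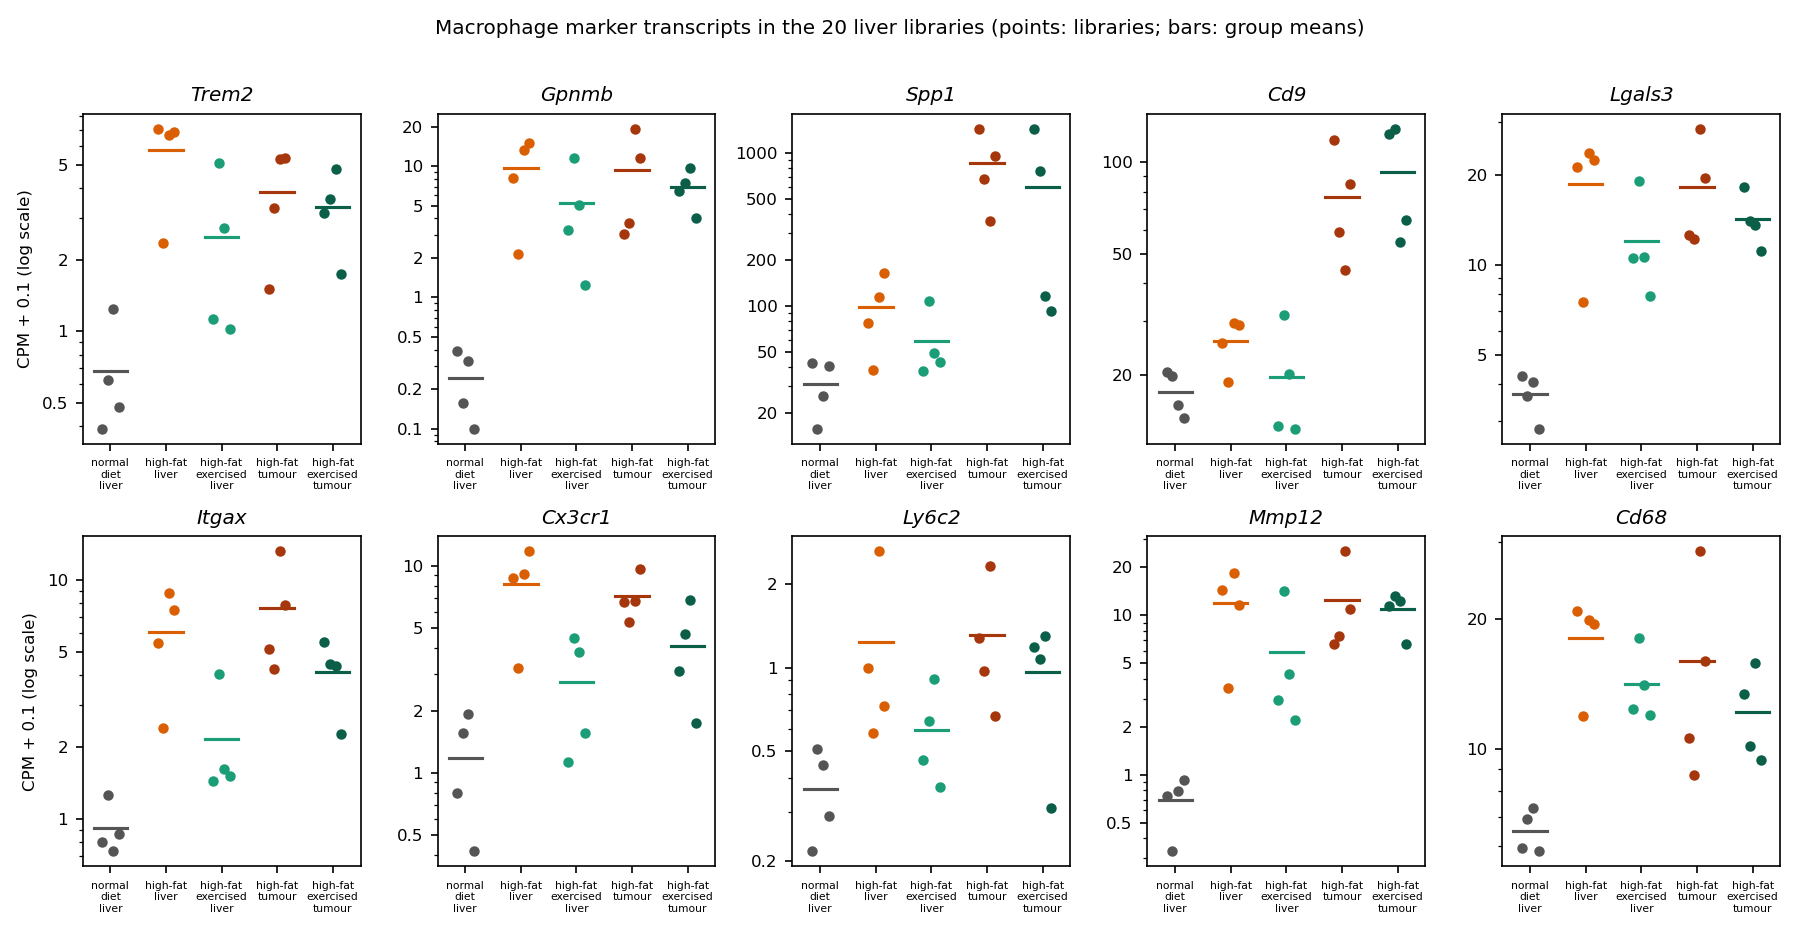
Level of each of the 10 genes in the 20 libraries, as CPM + 0.1 on a log axis. Points are libraries (4 per group) and bars are group means. The normal-diet group has the lowest mean for every gene, and Cd9 and Spp1 have higher means in both tumour groups than in the non-tumour groups, with overlapping Spp1 libraries in the exercised arm.

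Genes listed under the same programmes moved in part with the 10. The lists were drawn up with earlier results of these data known, and which cells of the tissue held these transcripts was not tested. Of 22 further lipid-associated macrophage genes, 14 were higher and none lower, with a median log2 fold change of 1.25. They included the lectin gene Lgals1 (2.19 ± 0.30), the fatty acid transporter gene Cd36 (1.84 ± 0.26), the actin-capping gene Capg (1.91 ± 0.33) and the fatty acid binding gene Fabp4 (1.58 ± 0.28). Of 14 genes of recruited monocytes, 10 were higher and none lower (median 1.41), among them Ccr2, the chemokine receptor that brings monocytes out of the bone marrow (2.87 ± 0.45), and the Fc receptor gene Fcgr1 (1.69 ± 0.33). Of 12 Kupffer cell genes, 3 were higher (Cd5l 1.46 ± 0.41, Adgre1 1.12 ± 0.35, Csf1r 0.93 ± 0.31) and none lower.

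Of a list of 21 ligands, receptors and partners, 11 were higher and none lower. Not all of them belong to the 10 genes, since Ccl2 and Csf1 act through receptors outside the set (Ccr2 and Csf1r). Ccl2, the ligand of Ccr2, was higher by 3.16 ± 0.61 (adjusted p = 0.00155), Tyrobp, the adaptor of Trem2, by 1.39 ± 0.33 (adjusted p = 0.00597), and Itgb2, the partner of Itgax, by 1.53 ± 0.37. Cd44, a receptor of osteopontin, was higher by 1.07 ± 0.32, and Csf1, the macrophage growth factor, by 0.81 ± 0.22. Cx3cl1, the ligand of Cx3cr1, did not pass (1.16 ± 0.54, adjusted p = 0.121), nor did Syk, the kinase downstream of Tyrobp (0.95 ± 0.36, adjusted p = 0.059).

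Markers of leukocytes in general moved the same way. All 5 were higher, with summed levels of 42.4 to 54.8 CPM on the normal diet and 66.8 to 153.7 CPM on the high-fat diet, and a median log2 change of 1.19. None of 4 tested T and NK cell genes, 4 tested neutrophil genes or 4 tested dendritic cell genes passed (median log2 differences 1.10, 0.60 and 0.99). Their summed levels on the normal and the high-fat diet were 1.32 to 2.85 and 1.82 to 8.59 CPM for T and NK cells, 5.22 to 22.5 and 5.83 to 49.7 CPM for neutrophils, and 8.71 to 10.2 and 10.3 to 13 CPM for dendritic cells. The neutrophil marker Ly6g was at 0 in all normal-diet libraries and at most 0.0993 CPM in the high-fat group. The stellate cell genes Col1a1 (2.78 ± 0.59) and Pdgfrb (1.03 ± 0.26) were higher as well, 2 of 4 tested (summed levels 174.3 to 244.5 and 226.7 to 388.3 CPM). Endothelial genes were lower in 2 of 4, Kdr (-0.95 ± 0.19) and Clec4g (-0.78 ± 0.24), with summed levels of 201.6 to 223.4 CPM on the normal diet and 112.1 to 179.9 CPM on the high-fat diet. Of 4 hepatocyte genes 1 was lower, the transcription factor gene Hnf4a (-0.65 ± 0.11), with summed levels of 66300 to 79070 CPM and 48670 to 73110 CPM. The part of these cell types in the result was not tested.

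**Figure D2:**
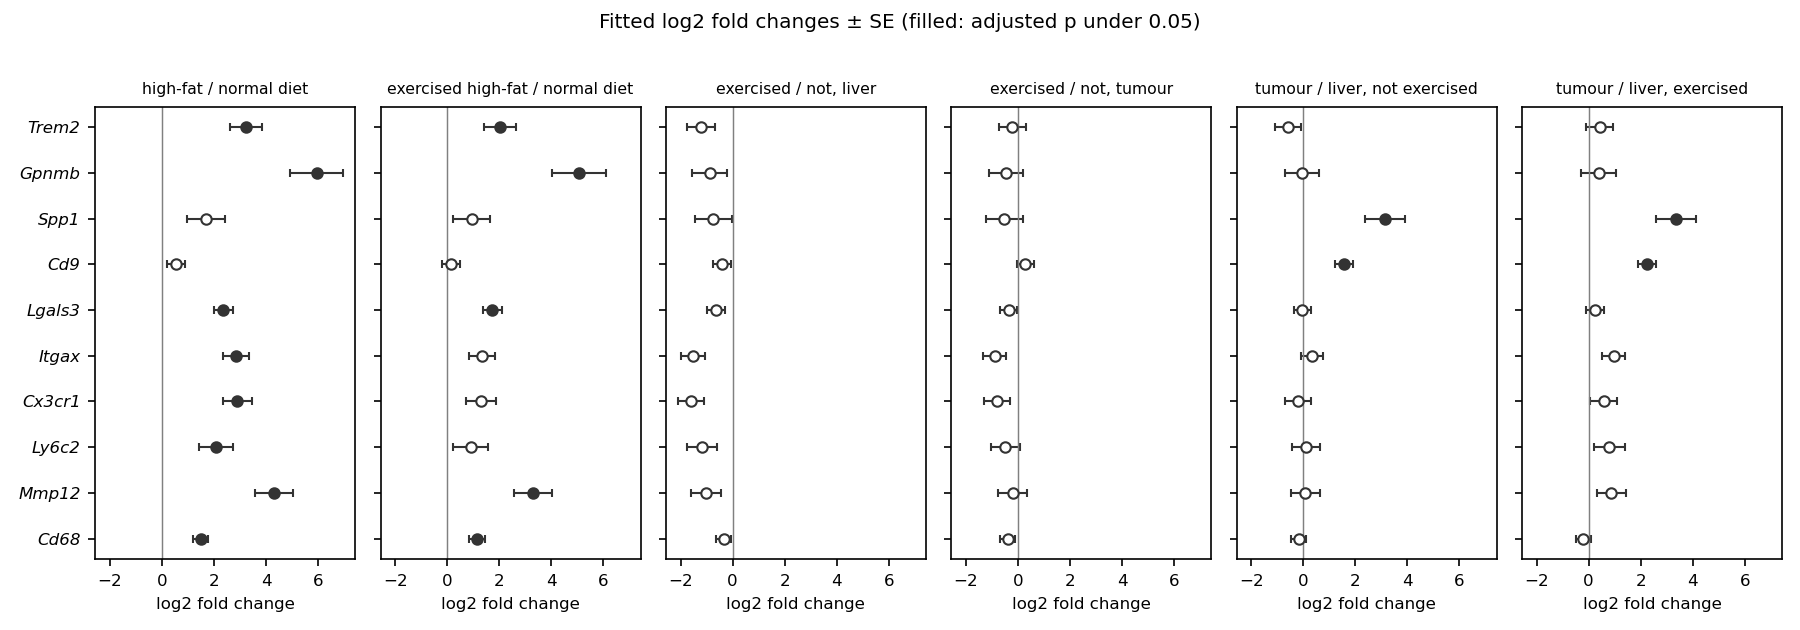
Log2 fold change of each of the 10 genes in each comparison except the interaction, with bars of ± SE from the edgeR fit. Filled points passed the test. For diet 8 genes passed the test (Spp1 and Cd9 did not), while for exercise all 10 estimates in non-tumour liver are below 0 and none passed.

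Since 8 of the genes moved together with diet, their promoters were searched for letters of motifs bound by factors of macrophages and lysosomes. RefSeq windows of 250 bases before to 50 after the start (GRCm38.p6, an older build than that of the counts) were found for 10 of 10 genes, in 13 windows. The AP-1 letters TGANTCA, read on both strands, were in 5 windows, of Trem2, Gpnmb, Itgax, Mmp12 and Cd68, and in 7.81% of all 32851 windows. The PU.1 letters GAGGAAGT, read on both strands, were in 4 windows of 3 genes (Spp1, Ly6c2 and Mmp12) and in 3.2% of all windows. The E-box CACGTG was in none of the 13 windows and in 7.15% of all, and the longer lysosomal CLEAR motif, which contains it, was in none and in 0.326% of all. Shown are the stretches that hold a match, 5′ to 3′ on the gene's strand, with the matched letters in capitals. These are matches of letters only.
Trem2 (AP-1, chr17:48346341-48346400, + strand): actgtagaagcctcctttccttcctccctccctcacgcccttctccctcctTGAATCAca
Gpnmb (AP-1, chr6:49036458-49036537, + strand): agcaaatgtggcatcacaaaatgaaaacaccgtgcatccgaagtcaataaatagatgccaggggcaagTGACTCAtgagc
Itgax (AP-1, chr7:128129470-128129549, + strand): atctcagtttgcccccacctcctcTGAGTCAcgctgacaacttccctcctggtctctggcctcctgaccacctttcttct
Mmp12, one start (AP-1, chr9:7347294-7347373, + strand): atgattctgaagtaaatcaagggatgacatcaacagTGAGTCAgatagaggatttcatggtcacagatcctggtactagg
Mmp12, another start (PU.1 on the other strand, chr9:7344287-7344396, + strand): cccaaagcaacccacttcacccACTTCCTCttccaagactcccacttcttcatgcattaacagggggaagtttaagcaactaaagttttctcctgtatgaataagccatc
Cd68 (AP-1 at 2 places, chr11:69666171-69666330, - strand): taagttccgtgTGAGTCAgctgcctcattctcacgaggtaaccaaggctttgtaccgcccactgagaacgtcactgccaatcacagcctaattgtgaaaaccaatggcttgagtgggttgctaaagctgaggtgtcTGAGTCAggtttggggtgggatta
Spp1 (PU.1, chr5:104434981-104435110, + strand): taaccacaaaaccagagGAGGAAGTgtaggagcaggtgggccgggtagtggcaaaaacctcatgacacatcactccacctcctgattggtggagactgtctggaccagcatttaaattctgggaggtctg
Ly6c2 (PU.1 at 2 places, chr15:75111938-75112087, - strand): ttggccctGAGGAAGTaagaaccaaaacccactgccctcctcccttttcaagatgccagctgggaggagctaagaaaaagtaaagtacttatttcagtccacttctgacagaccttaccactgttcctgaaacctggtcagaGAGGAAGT

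The next comparison asked whether exercise changed these genes in non-tumour liver on the high-fat diet. All 10 estimates were below 0, with a median of -0.95 against -0.01 for all genes tested, but none of the 10 passed (edgeR), and 0.0139% of all genes did. At an unadjusted p under 0.05 there were 3 of the 10, against 8.34% of all genes, and DESeq2 called none of the 10, with 3 at an unadjusted p under 0.05. Itgax was at 1.34, 3.94, 1.51 and 1.41 CPM in exercised liver, and 3 of these 4 libraries lay below the lowest non-exercised library. The log2 difference was -1.53 ± 0.45 (adjusted p = 0.268), with a 95% interval of -2.47 to -0.59 before adjustment. Cx3cr1 was at 1.03, 4.38, 3.73 and 1.46 CPM (-1.60 ± 0.51, adjusted p = 0.344), and 2 of these libraries lay within the non-exercised range. Trem2 was at 1.03, 4.97, 2.62 and 0.921 CPM (-1.23 ± 0.53, adjusted p = 0.557), with the libraries of mice 2 and 3 inside the non-exercised range.

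In the other 7 genes the exercised and non-exercised libraries also overlapped, while 2.27% of all genes had every exercised library below every non-exercised one. Gpnmb was at 3.16, 11.4, 4.94 and 1.14 CPM (-0.88 ± 0.67), Mmp12 at 2.86, 14.1, 4.19 and 2.11 CPM (-1.02 ± 0.57) and Lgals3 at 10.5, 18.9, 10.5 and 7.74 CPM (-0.64 ± 0.34). Cd68 was at 12.3, 17.9, 14 and 11.9 CPM (-0.35 ± 0.29), with a 95% interval of -0.96 to 0.25. Ly6c2 (-1.18 ± 0.58), Spp1 (-0.74 ± 0.71) and Cd9 (-0.40 ± 0.34) were likewise not called. Without the non-exercised library of mouse 2, Itgax was at -1.79 (adjusted p = 0.145), Cx3cr1 at -1.86 (0.176) and Trem2 at -1.48 (0.309). Without the exercised library of mouse 2 they were at -2.06 (0.135), -1.95 (0.174) and -1.87 (0.172), and Spp1 at -1.19 (0.585), and in neither case did any of the 10 genes pass. None of the 22 lipid-associated, 14 monocyte, 12 Kupffer cell or 21 partner genes was called either, and the 5 leukocyte genes had a median of -0.53 with none called.

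Exercised non-tumour liver was also set against normal-diet liver, with which the diet comparison shares its controls. Diet, exercise, tumour bearing and the selection on body weight cannot be told apart in it. Here 5 genes were higher and none lower, against 7.54% of all genes higher and 6.69% lower. Gpnmb was higher by 5.07 ± 1.04 (adjusted p = 0.00467), Mmp12 by 3.29 ± 0.74 (0.00795), Lgals3 by 1.73 ± 0.37 (0.00584), Trem2 by 2.02 ± 0.62 (0.0372) and Cd68 by 1.13 ± 0.30 (0.0188). Itgax (1.33 ± 0.51, adjusted p = 0.0864), Cx3cr1 (1.30 ± 0.57, 0.135), Ly6c2 (0.90 ± 0.69), Spp1 (0.94 ± 0.72) and Cd9 (0.16 ± 0.34) did not pass, although every exercised Itgax library lay above every normal-diet library, as in 11.6% of all genes. The count fell to 3 without the normal-diet library of mouse 1 or of mouse 4, or the exercised library of mouse 2. Without that exercised library Trem2 was at 1.37 (adjusted p = 0.167), Cd68 at 0.99 (0.0654), Itgax at 0.80 (0.343) and Spp1 at 0.48 (0.756). Trem2 was also lost without the normal-diet library of mouse 2 or the exercised library of mouse 3, with no filter on low counts (adjusted p = 0.0959) and in a fit of the compared groups alone (0.0617), and Itgax passed in DESeq2 (0.0372).

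Of the related lists, 6 of 22 lipid-associated genes and 4 of 14 monocyte genes were higher and none lower in exercised liver against the normal diet. They included Lgals1 (1.82), Cd36 (1.63) and Ccr2 (1.73 ± 0.45). Only 2 of the 21 partner genes were higher and none lower, where 7.54% of all genes were higher, and Ccl2 was higher by 2.28 ± 0.62. Of 12 Kupffer cell genes 2 were higher, Cd5l (1.38 ± 0.41) and Marco (2.63 ± 0.83), and none lower. None of the 5 leukocyte genes passed, with summed levels of 67.7 to 82.8 CPM in exercised liver and 42.4 to 54.8 CPM on the normal diet.

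Tumours were compared with non-tumour pieces within each arm. In both arms Spp1 and Cd9 were higher in tumours, and the other 8 genes did not pass. In the non-exercised arm this is 2 of 10, where 18% of all genes tested were higher and 17.8% lower, and in the exercised arm 2 of 10, where 18.6% were higher and 16% lower. The median over the 10 genes was 0.02 in the non-exercised arm and 0.68 in the exercised arm, against -0.01 and 0.01 over all genes.

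Spp1 was at 1445, 677.7, 357.7 and 966.3 CPM in non-exercised tumours, each above all 4 non-tumour libraries of the arm, as in 16.5% of all genes. The difference was 3.13 ± 0.76 on the log2 scale (adjusted p = 0.0046), and in the mice numbered 1 to 4 the tumour held 18.6, 17.9, 3.14 and 5.86 times the level of the non-tumour piece. In exercised mice Spp1 was at 37.2, 107.2, 48.9 and 42.8 CPM in non-tumour pieces and at 1432, 760.2, 116.7 and 92.4 CPM in tumours. The tumours of mice 1 and 2 were far above those of mice 3 and 4, and that of mouse 4 lay below the non-tumour piece of mouse 2, so the groups overlap. The log2 difference was 3.35 ± 0.77 (adjusted p = 0.00365), and the ratio within a mouse was 38.5, 7.10, 2.39 and 2.16. With the mouse as a block it was 2.52 and did not pass (adjusted p = 0.0685), and without the non-tumour library of mouse 2 it was 3.78 (adjusted p = 0.004).

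Cd9 rose in the tumours of both arms with no overlap, as in 16.5% of all genes in the non-exercised and 14.6% in the exercised arm. In non-exercised tumours it was at 118.5, 59.1, 44.2 and 84.6 CPM (1.57 ± 0.34, adjusted p = 0.00212), which is 4.67, 3.13, 1.5 and 2.91 times the non-tumour piece of the same mouse. In exercised mice it went from 13.4, 31.4, 20 and 13.2 CPM to 123.5, 128.8, 54.7 and 64.3 CPM (2.25 ± 0.35, adjusted p = 0.000292). The ratios within these mice were 9.19, 4.10, 2.73 and 4.87. Without the non-exercised non-tumour library of mouse 2, Spp1 (2.86, adjusted p = 0.018) and Cd9 (1.45, adjusted p = 0.00974) still passed.

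**Figure D3:**
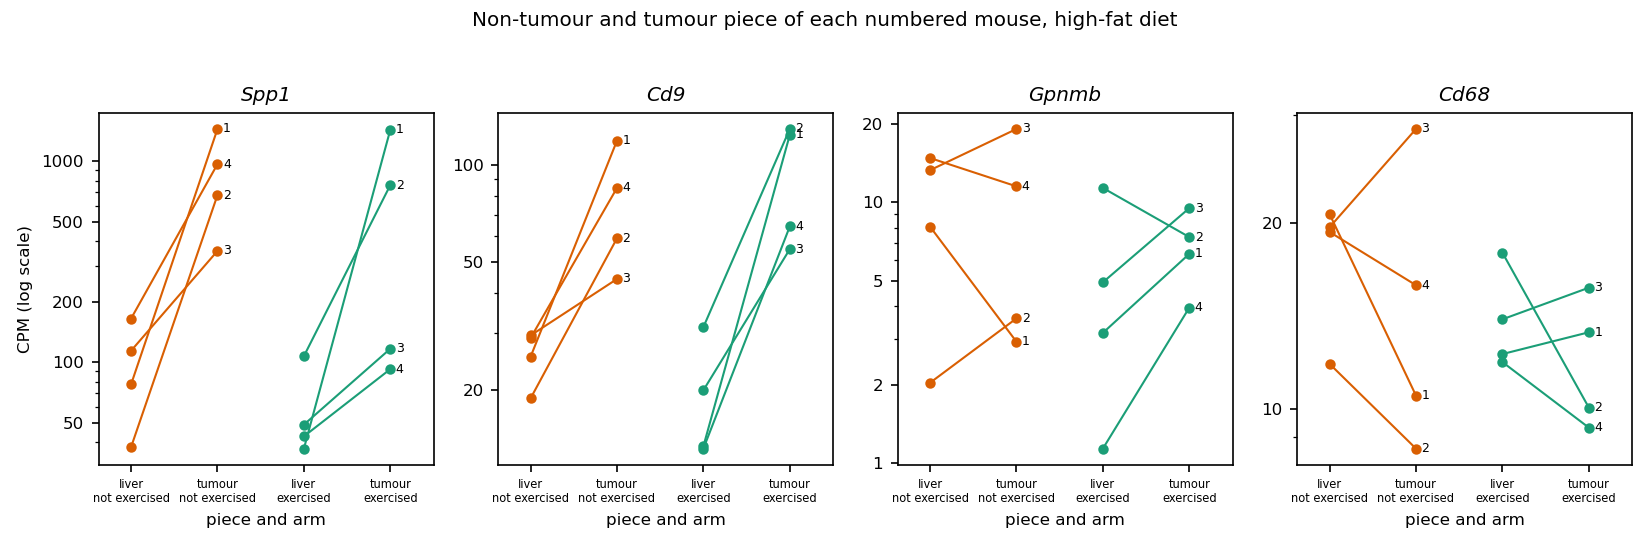
Spp1, Cd9, Gpnmb and Cd68 in the non-tumour and tumour piece of each numbered mouse, as CPM on a log axis. Lines join pieces with the same mouse number, printed beside the tumour point. Spp1 and Cd9 are higher in the tumour in 4 of 4 mice of each arm, Gpnmb in 2 non-exercised and 3 exercised mice, and Cd68 in 1 and 2.

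None of the receptor, lysosomal and monocyte genes was called in tumours of either arm, which does not show that they differ from Spp1 and Cd9. Non-exercised tumours held Gpnmb at 2.92, 3.59, 19.1 and 11.5 CPM (-0.04 ± 0.66), Cd68 at 10.5, 8.62, 28.4 and 15.9 CPM (-0.17 ± 0.29) and Trem2 at 1.41, 3.18, 5.16 and 5.22 CPM (-0.59 ± 0.51). Their libraries overlap those of the non-tumour pieces throughout, and the tumour of mouse 3 was the highest of its group for 6 of the 10 genes. Without that library Cd68 was called lower (-0.62, adjusted p = 0.0409). Mmp12 was at 6.52, 7.29, 25 and 10.9 CPM (0.07 ± 0.56), Itgax at 5.06, 4.16, 13.1 and 7.75 CPM (0.34 ± 0.42) and Cx3cr1 at 6.57, 5.29, 6.64 and 9.61 CPM (-0.21 ± 0.49). Lgals3 (-0.04 ± 0.33; 95% interval -0.74 to 0.66) and Ly6c2 (0.10 ± 0.54; 95% interval -1.04 to 1.23) were also not called, and upper bounds for Gpnmb (1.35), Mmp12 (1.24) and Itgax (1.22) also exceed 1 log2 unit.

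In exercised tumours Itgax was at 5.38, 4.34, 4.26 and 2.16 CPM (0.96 ± 0.45, adjusted p = 0.106) and Mmp12 at 11.3, 13, 12.3 and 6.48 CPM (0.88 ± 0.57, adjusted p = 0.251). Itgax was higher in the tumour in 4 of 4 exercised mice (4.03, 1.10, 2.81 and 1.53 times the non-tumour piece), as was Cx3cr1 (2.93, 1.04, 1.81 and 1.12 times; 0.58 ± 0.52, adjusted p = 0.408). Itgax and Mmp12 passed without the exercised non-tumour library of mouse 2, at 1.48 (adjusted p = 0.0192) and 1.80 (adjusted p = 0.0177), so that 4 of 10 genes were then called. Trem2 was at 3.02, 3.48, 4.71 and 1.63 CPM (0.42 ± 0.53), Gpnmb at 6.35, 7.37, 9.51 and 3.95 CPM (0.39 ± 0.68) and Cd68 at 13.3, 10.1, 15.7 and 9.32 CPM (-0.21 ± 0.29). The tumour of mouse 4 was the lowest of its group for 9 of the 10 genes.

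Some other genes of the lipid-associated list were called in the tumours. Fabp5, an intracellular fatty acid carrier, was higher by 3.94 ± 0.58 in non-exercised and 4.5 ± 0.60 in exercised tumours, the lipase gene Lpl by 1.76 ± 0.28 and 2.33 ± 0.28, and the tetraspanin gene Cd63 by 2.66 ± 0.51 and 3.48 ± 0.53. Of the 22 lipid-associated genes, 3 were higher and 3 lower in non-exercised tumours, near the shares of all genes (18% higher and 17.8% lower). Those lower were the fatty acid transporter gene Cd36 (-0.72 ± 0.25, adjusted p = 0.0335), the lipoprotein gene Apoe (-0.49 ± 0.14, adjusted p = 0.0105) and the cathepsin gene Ctsb (-0.33 ± 0.13, adjusted p = 0.0444). In exercised tumours 7 were higher and none lower, where 18.6% of all genes were higher and 16% lower. On diet, by contrast, neither Fabp5 (-1.11 ± 0.55, adjusted p = 0.144) nor Lpl (0.33 ± 0.27, adjusted p = 0.383) passed. Ly6c1, the neighbour of Ly6c2, was higher in the tumours of both arms (3.16 ± 0.82 and 4.54 ± 0.83), with the same uncertainty of shared reads. It was the only called gene of the 14 on the monocyte list in either arm, where 18% and 18.6% of all genes were higher. Ly6c2 itself was not called, and which cells held the Ly6c1 transcripts was not tested. Of the 21 partners, 4 were higher in non-exercised and 5 in exercised tumours and none was lower. The counts higher are near the shares of all genes higher, 18% and 18.6%. Those higher included the osteopontin-binding integrin genes Itgb1 (0.49 and 0.51) and Itgav (0.52 and 0.43).

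Markers of other cells moved in the tumours too. Of 12 Kupffer cell genes, 8 were lower and none higher in each arm, among them Clec4f (-1.32 ± 0.44 and -1.42 ± 0.44), Timd4 (-2.16 ± 0.75 and -2.05 ± 0.68) and Folr2 (-1.57 ± 0.45 and -1.53 ± 0.44). Their summed level was 733 to 773 CPM in non-exercised non-tumour pieces and 236 to 818 CPM in the tumours, and 714.5 to 1011 against 312.2 to 567.5 CPM in the exercised arm. None of the 5 leukocyte genes was called, with summed levels of 55.6 to 187 CPM in non-exercised and 53.5 to 88 CPM in exercised tumours. Of 5 bile duct genes, the progenitor factor Sox9 was higher in both arms (1.52 ± 0.36 and 1.39 ± 0.37). The duct keratin gene Krt19 was lower in non-exercised tumours (-1.12 ± 0.39), at 0.517 to 0.651 CPM. It was not called in exercised tumours, and the other 3 were called in neither arm. The summed level of the 5 was 7.60 to 14.7 CPM in non-tumour pieces and 14.1 to 23.9 CPM in tumours of the non-exercised arm, and 4.71 to 13.3 against 10.8 to 21.6 CPM in the exercised arm. The hepatocyte genes Alb (1.40 ± 0.23 and 1.25 ± 0.23) and Apoa1 (1.64 ± 0.23 and 1.62 ± 0.23) were higher in the tumours of both arms, 2 of 4 tested, with summed levels of 96130 to 208200 CPM in non-exercised and 122200 to 220500 CPM in exercised tumours. The endothelial gene Pecam1 was higher in both arms (0.53 ± 0.19 and 0.87 ± 0.19), and Kdr in exercised tumours (0.58 ± 0.19). The part of these cell types in the rise of Spp1 and Cd9 was not tested.

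Exercise was also compared within tumours. None of the 10 genes passed (edgeR), and 0.0208% of all genes did. At an unadjusted p under 0.05 there was 1 of the 10, Itgax (-0.90 ± 0.43, adjusted p = 0.575), against 8.68% of all genes, and DESeq2 called none of the 10. Estimates ran from -0.90 for Itgax to 0.28 for Cd9, with 9 of 10 below 0 and a median of -0.42. The interval for Spp1, -2.0 to 0.96 on the log2 scale, leaves room for changes in either direction. The interaction of exercise and tumour passed for none of the 10 genes or of all genes (0% called), was at an unadjusted p under 0.05 in none of the 10 and in 2.03% of all genes, and had an adjusted p of 1 for each of the 10. DESeq2 also called none of the 10 for the interaction. Nor did any pass without the non-exercised or the exercised non-tumour library of mouse 2, where for example Trem2 went from 1.0 to 1.24 and 1.63 and Mmp12 from 0.81 to 1.09 and 1.72. Effects of exercise in the tumour and non-tumour pieces, and of tumour in either arm, are therefore not shown to differ.

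Ordered by mean level, normal-diet liver was lowest for all 10 genes. Next came exercised non-tumour liver for every gene but Cd68, whose next lowest group was the exercised tumours. Normal-diet libraries did not overlap the next group for Gpnmb, Lgals3, Itgax, Mmp12 and Cd68. Among the high-fat groups, neighbours in the order overlapped for every gene, except that Cd9 in non-exercised non-tumour liver lay wholly below non-exercised tumours. The highest mean was in non-exercised non-tumour liver for Trem2, Gpnmb, Lgals3, Cx3cr1 and Cd68, in non-exercised tumours for Spp1, Itgax, Ly6c2 and Mmp12, and in exercised tumours for Cd9.

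Per length of exon, Spp1 was by far the most abundant of the set. In non-exercised high-fat liver its mean was 59.8 ± 32.8 RPKM (CPM divided by exon length in kilobases; SD, n = 4), followed by Cd68 at 14.2 ± 3.25, Cd9 at 12.6 ± 2.41 and Lgals3 at 10 ± 4.05. Cx3cr1 (1.80), Mmp12 (1.64), Gpnmb (1.47), Itgax (1.24) and Trem2 (1.14) were near one another and Ly6c2 was lowest (0.414). In non-exercised tumours Spp1 stood at 522.8 ± 280 RPKM and Cd9 at 37.5 ± 15.9 RPKM, while Cd68 stood at 12.6 ± 7.10 RPKM.

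Across the 20 libraries the set did not vary as 1 block. After group means were removed, the 28 pairs among the 8 genes other than Spp1 and Cd9 correlated at 0.442 to 0.913 (Pearson r of log2 CPM, median 0.716), highest for Gpnmb with Lgals3. The 16 pairs of Spp1 or Cd9 with one of those 8 lay between -0.0501 and 0.425 (median 0.24), and Spp1 with Cd9 at 0.807. This grouping was made after the values were seen, the points share libraries and depth, and the correlations are a description. With Cd68, Spp1 correlated at -0.0153 and Cd9 at -0.0501 within groups. Higher values within groups were those of Spp1 with Itgax (0.388) and of Cd9 with Cx3cr1 (0.425). Which cells held the Spp1 and Cd9 transcripts was not tested.

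**Figure D4:**
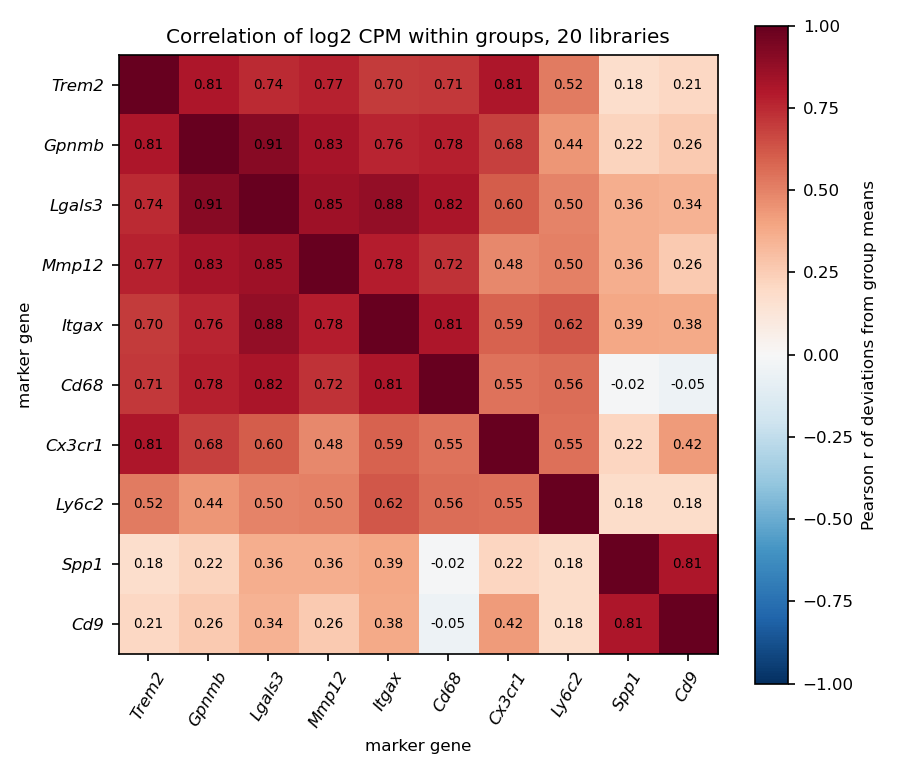
Pearson r between each pair of the 10 genes over the 20 libraries after group means were removed from log2 CPM. Pairs among the 8 genes other than Spp1 and Cd9 lie between 0.442 and 0.913, and Spp1 with Cd9 is at 0.807.

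The genes with the most similar pattern were sought among 12816 protein-coding genes, by Pearson r of log2 CPM over the 20 libraries without removal of group means. Gpnmb and Lgals3 were each other's nearest gene (0.975), followed for Gpnmb by Mmp12 (0.957) and for Lgals3 by Tnc (0.967). Itgax was nearest to Plac8 (0.959) and Lat2 (0.955), Cd68 to Evl and Cd48 (both 0.967) and Mmp12 to Pkm (0.96) and Haus8 (0.958). Trem2 was nearest to Hpgds (0.934) and Sdcbp2 (0.924), Cx3cr1 to Pitpnm1 (0.915) and Trem2 (0.913), and Ly6c2 to Plac8 and Krt80 (both 0.879). Spp1 was nearest to Tagln2 (0.966) and Slc25a24 (0.957), and Cd9 to Itga2 (0.984) and Noxa1 (0.982).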

How the data were processed

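Gene expression was measured by stranded mRNA sequencing of RNA from 20 frozen liver samples, per the labels' protocols. The deposited files hold unnormalised counts of reads, which the authors made with featureCounts 2.0.5 over exons of GENCODE M27 with strand setting 2 (reverse-stranded), per the file headers. Trim Galore 0.6.10, STAR 2.7.11a and GRCm39 are named in the submitters' processing notes. Since no option for multi-mapping reads or read pairs appears in the headers, reads that match near-identical copies are taken as uncounted. Samples were grouped by their titles.

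From the deposited counts, 14428 genes were retained with filterByExpr (5 groups; at least 10 counts in the group-sized number of libraries and 15 in total). The quasi-likelihood model of edgeR 4.0.16 (robust, TMM scaling, R 4.3.3) was fitted to 5 group means over 20 libraries (15 residual degrees of freedom), with two-sided tests and a Benjamini-Hochberg adjusted p under 0.05 over all genes tested. The SE is the log2 fold change divided by the root of F, and a prior count of 2 was used for log2 CPM. In the smallest library 1 CPM is 16.5 counts, so low genes carry a large counting error. The procedure was tested on simulated data with set changes of 1.5, 2 and 4 fold, in 66 or 67 genes each. For exercise in non-tumour liver it recovered 43.3%, 68.7% and 84.85% of them, and 7.09% of calls were false. For diet it recovered 40.3%, 74.6% and 86.4%, and 3.6% of calls were false. Libraries of a group correlated at 0.934 to 0.99, and none looked like a repeat deposit.

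The text names the 10 genes in every comparison. From each list it draws on up to 4 called genes with the smallest p, or the 2 most abundant where none was called, and on any partner gene, with the 2 genes most like each of the 10. The genes and lists were chosen with earlier results of these data known. Spp1 and Cd9 were set apart in the correlations after their values were seen. Fabp5 and Lpl on diet, Ly6g, the MiT factors, and Hexa and Npc2 in non-exercised tumours fall outside this rule and were named after their values were seen. Some genes that the rule names are left out and not reported here.

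Within an arm, both kinds of piece carry the same mouse numbers in the titles and were read as pieces of 1 mouse. The correlation of their deviations from the group means was -0.0835 to 0.213 in the non-exercised arm and 0.0754 to 0.441 in the exercised arm. For pieces of unlike number it was -0.177 to 0.108 and -0.4 to 0.199. The ranges overlap in both arms, so the pairing rests on the titles. Alternatives were RLE and upper-quartile scaling, DESeq2 1.42.0, no filter and a filter at 1 CPM, only the compared groups, replicate blocks, and leaving out each library.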

Additional observations from a re-analysis of the deposited data

Results flagged for a closer look

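Of the 50 combinations of gene and group, 5 held a library far from the other 3 of its group, a gap that chance gives in about 1 in 20 groups. All 5 were libraries of mouse 2 from non-tumour liver on the high-fat diet. In non-exercised liver the library of mouse 2 stood low for Trem2 (2.25 CPM), Lgals3 (7.39 CPM) and Cd68 (11.8 CPM). In exercised liver the library of mouse 2 stood high for Spp1 (107.2 CPM) and Itgax (3.94 CPM). Values without these libraries are given above for part of the genes. Without the non-exercised library of mouse 2, Lgals3 was higher by 2.63 on diet and still passed. For exercise in non-tumour liver Lgals3 was then at -0.90 and Cd68 at -0.50. For non-exercised tumours Trem2 was then at -0.84, Lgals3 at -0.295 and Cd68 at -0.32. None of the exercise and tumour values in this paragraph passed.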

How the results depend on the processing

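For the 10 genes no direction changed with RLE or upper-quartile scaling, DESeq2, either filter or the fit of only the groups compared (where Ly6c2 was under the count filter and not tested in the 2 comparisons with the normal diet), and the counts of these genes called under those settings stayed within 1.5 times of the main count. Upper-quartile scaling moved the split of all genes called on diet from 2025 higher and 1715 lower to 2513 and 1140, and in exercised liver against normal diet from 1088 and 965 to 1237 and 720.

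The replicate block by mouse reduced the genes of the set called in exercised tumours from 2 to 1 (Spp1 lost) and turned the interaction estimates of Spp1 (-0.65) and Cd68 (0.0626). It changed no other tumour call among the 10. Across the other groups mice share only a number. Blocking on it gave 8 of the 10 called on diet, with Spp1 gained (1.61, adjusted p = 0.00756) and Ly6c2 below the count filter of that fit and not tested, and 6 in exercised liver against normal diet, where Itgax and Cx3cr1 gained and Mmp12 lost the call.

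Counts over all genes for exercise rest on few calls. In non-tumour liver 2 genes became 1 with no filter, 117 with DESeq2, 0 with only the compared groups and 0 with the number block, and 0 to 72 with a library left out. In tumours 3 became 1 with RLE scaling, 1 with upper-quartile scaling, 1 with the 1 CPM filter, 79 with DESeq2, 0 with only the compared groups and 0 with the number block, and 0 to 41 with a library left out. In exercised liver against normal diet 2053 became 1302 with no filter and 1157 to 2157 with a library left out, and 3 to 5 of the 10 genes were called. In exercised tumours 2 to 4 of the 10 were called with a library left out.

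Estimates near 0 changed sign with a library left out. For non-exercised tumours these were Gpnmb (-0.67 to 0.29), Lgals3 (-0.34 to 0.13), Itgax (-0.0727 to 0.59), Cx3cr1 (-0.47 to 0.0229), Ly6c2 (-0.39 to 0.87), Mmp12 (-0.53 to 0.36) and Cd68 (-0.62 to 0.0396). For exercise in tumours they were Gpnmb (-0.77 to 0.16), Mmp12 (-0.45 to 0.37) and Cd68 (-0.61 to 0.0421). For the interaction they were Spp1 (-0.68 to 0.65), Ly6c2 (-0.10 to 1.15) and Cd68 (-0.27 to 0.39), and for exercised liver against normal diet Cd9 (-0.17 to 0.30). Apart from the constructions named, the cause was not tested.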

Other observations

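Lysosomal genes, many of which the MiT family of transcription factors drives, moved in part with the macrophage genes. On the high-fat diet 4 of 11 tested lysosomal and MiT genes were higher and none lower (edgeR, adjusted p under 0.05), among them the glycosidase gene Hexa (0.85 ± 0.15 on the log2 scale), the saposin precursor gene Psap (0.72 ± 0.14) and the cholesterol carrier gene Npc2 (0.49 ± 0.14). The factors themselves, Tfeb (-0.09 ± 0.17), Tfe3 (0.12 ± 0.09) and Mitf (-0.19 ± 0.15), did not pass. In exercised liver against the normal diet 4 of the 11 were also higher, among them Hexa (0.56 ± 0.15), Psap (0.49 ± 0.14) and Npc1 (0.31 ± 0.10).

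In tumours the lysosomal membrane gene Lamp2 was lower in both arms (-0.60 ± 0.13 and -0.58 ± 0.13), as was the proton pump gene Atp6v1h (-0.31 ± 0.07 and -0.26 ± 0.07). Hexa (0.60 ± 0.15) and Npc2 (0.49 ± 0.14) were higher in exercised tumours and did not pass in non-exercised tumours (0.22 ± 0.15 and 0.26 ± 0.14), and this difference between arms was not called by the interaction test, which called no gene.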
